A study of Mus musculus with 28 samples.

Results

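The levels of 10 lysosomal genes were followed in retinal microglia through endotoxin-induced uveitis (EIU). They are the cathepsin genes Ctsa, Ctsb, Ctsc, Ctsd, Ctsh, Ctsl, Ctss and Ctsz, the legumain gene Lgmn and the cystatin C gene Cst3, taken by their symbols, and they are 10 of the 40021 genes listed. All but Cst3, which encodes a protease inhibitor, encode proteases. RPKM, a measure of reads scaled to transcript length and sequencing depth, allows levels of different genes to be set side by side. It does not give each retina the same total, so that comparisons between retinas also depend on the scaling. Genes below 1 RPKM in all but 4 or fewer retinas were left out of the tests, and none of the 10 was.

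The 28 retinas comprised 10 naïve retinas and 6, 5 and 7 retinas taken 4 h, 18 h and 2 weeks after 10 ng of the bacterial endotoxin lipopolysaccharide (LPS) was injected into the vitreous. All came from male heterozygote Cx3cr1CreER:R26-tdTomato (C57BL/6) mice, naïve mice included, in which tamoxifen given topically for 3 days at 4 to 5 weeks of age switches on a red fluorescent protein in cells that express the fractalkine receptor gene Cx3cr1. LPS followed 4 weeks after tamoxifen, and live cells with high tdTomato fluorescence were sorted from each retina. Experiment 1 gave 6 naïve, 3, 4 and 4 retinas and experiment 2 gave 4, 3, 1 and 3, from left and right eyes. No vehicle-injected group was analysed here, so that the injection and LPS cannot be told apart. The labels do not tie retinas to animals, and p-values measure the spread between these retinas.

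Cathepsins are proteases of endosomes and lysosomes, made as inactive precursors and activated by cleavage at acid pH. Most are papain-like cysteine proteases, cathepsin D is an aspartic protease, cathepsin A is a serine carboxypeptidase and legumain cuts after asparagine and processes several cathepsins. Cystatin C is a secreted inhibitor of papain-like cathepsins and of legumain. Microglia use these enzymes to degrade what they engulf and to prepare antigen, and Ctss and Cst3 are among the genes known to be abundant in them.

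Promoter sequences are shown for Ctsc and Cst3, the genes that passed the test against naïve retinas, for Ctss as the most abundant protease gene, and for Ctsa and Ctsd as genes that varied together between retinas. The windows are RefSeq windows of GRCm38.p6, from 250 bases before to 50 bases from a transcription start, and 8 of the 10 genes had at least 1, with 10 windows in all. Ctsb and Ctsh had none. Capitals mark matches, on either strand, to the interferon-stimulated response element GAAANNGAAA, the gamma-activated sequence TTCNNNGAA, the E-box core CACGTG, the PU.1 core GAGGAA or the NF-kappa B motif. Each sequence reads 5′ to 3′ on the strand of its gene.
Ctsc, chr7:88277835-88278134, plus strand: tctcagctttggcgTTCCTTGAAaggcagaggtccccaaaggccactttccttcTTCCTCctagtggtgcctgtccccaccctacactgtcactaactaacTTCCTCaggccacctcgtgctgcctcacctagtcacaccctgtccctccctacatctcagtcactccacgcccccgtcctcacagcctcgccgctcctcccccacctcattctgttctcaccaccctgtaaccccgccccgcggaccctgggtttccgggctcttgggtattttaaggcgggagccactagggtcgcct
Cst3, chr2:148875463-148875762, minus strand: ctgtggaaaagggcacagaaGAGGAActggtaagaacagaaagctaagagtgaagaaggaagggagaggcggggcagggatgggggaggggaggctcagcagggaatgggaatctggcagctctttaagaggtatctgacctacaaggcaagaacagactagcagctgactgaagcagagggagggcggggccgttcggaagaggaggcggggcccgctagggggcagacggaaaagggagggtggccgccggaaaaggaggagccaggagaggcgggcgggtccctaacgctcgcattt
Ctss, chr3:95526536-95526835, plus strand: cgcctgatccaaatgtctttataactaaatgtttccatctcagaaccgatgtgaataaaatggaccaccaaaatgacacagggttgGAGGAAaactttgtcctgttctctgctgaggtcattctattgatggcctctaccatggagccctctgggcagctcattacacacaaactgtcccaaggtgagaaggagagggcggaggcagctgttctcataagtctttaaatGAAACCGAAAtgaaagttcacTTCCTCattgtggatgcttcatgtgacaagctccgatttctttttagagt
Ctsd, chr7:142387778-142388077, minus strand: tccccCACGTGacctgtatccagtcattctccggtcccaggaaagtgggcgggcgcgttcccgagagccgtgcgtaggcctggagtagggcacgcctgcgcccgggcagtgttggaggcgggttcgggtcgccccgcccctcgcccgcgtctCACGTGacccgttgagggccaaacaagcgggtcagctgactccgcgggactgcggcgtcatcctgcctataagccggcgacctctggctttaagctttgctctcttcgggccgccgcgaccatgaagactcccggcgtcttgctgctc
Ctsa, second start, chr2:164833523-164833822, plus strand: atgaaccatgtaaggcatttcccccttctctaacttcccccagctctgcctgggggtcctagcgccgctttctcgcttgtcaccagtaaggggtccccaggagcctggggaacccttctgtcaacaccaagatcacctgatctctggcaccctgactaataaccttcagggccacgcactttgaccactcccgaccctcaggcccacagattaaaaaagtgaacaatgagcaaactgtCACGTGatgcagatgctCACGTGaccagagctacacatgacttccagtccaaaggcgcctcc

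The Ctsc window held a gamma-activated sequence match from -236 to -228 relative to the start and 2 PU.1 core matches. The Cst3 window held 1 PU.1 core match, from -230 to -225. Ctss had the only interferon-stimulated response element match of the 10 windows, from -21 to -12, and 2 PU.1 core matches. The E-box core, recognised by the lysosomal regulator TFEB and by MITF, lay at -98 to -93 and at -245 to -240 in Ctsd, and at -12 to -7 and at 5 to 10 in Ctsa. It also lay in the Ctsl window and in the window of a second Lgmn start, so that 4 of the 10 windows had a match. The windows of the first Ctsa start and of the first Lgmn start held none of the 5 motifs. Of 32817 windows of this length, 7.15% held the E-box core, 8.29% the gamma-activated sequence, 3.43% the interferon-stimulated response element, 28.3% the PU.1 core and 8.46% the NF-kappa B motif, which matched in the Ctsz window and in that second Lgmn window. No match overlapped another. These are letter matches, with no measurement of binding.

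In naïve microglia Cst3 and Ctss stood far above the other genes of the set. Cst3 had a median of 27418 RPKM (range 13759 to 35642, n = 10), the highest median of all genes listed. Ctss, which encodes a cysteine protease that trims the MHC class II invariant chain, had a median of 10465 RPKM (6890 to 13118) and ranked as number 3. Their ranges did not overlap, and Cst3 was above Ctss in all 10 naïve retinas.

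Ctsz, which encodes a carboxypeptidase, followed with a median of 1032 RPKM (732 to 1437), and its range did not overlap with that of Ctss. Lgmn had a median of 670 RPKM (223 to 2327), Ctsd 429 RPKM (170 to 4373) and Ctsc 411 RPKM (277 to 743). Ctsc encodes dipeptidyl peptidase I, which activates the serine proteases of leukocyte granules. Ctsb, an endopeptidase gene, had a median of 335 RPKM (103 to 824), and Ctsl, another endopeptidase gene, 142 RPKM (79.3 to 192). Ctsa had a median of 132 RPKM (34.5 to 235) and the aminopeptidase gene Ctsh 106 RPKM (72 to 228). From Ctsz downwards each gene overlapped in range with the next in order, so that neighbours in this order were not separated by the spread between retinas, although the range of Ctsz lay above those of Ctsl, Ctsa and Ctsh. Even Ctsh ranked as number 432 of the 40021 genes.

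**Figure D1:**
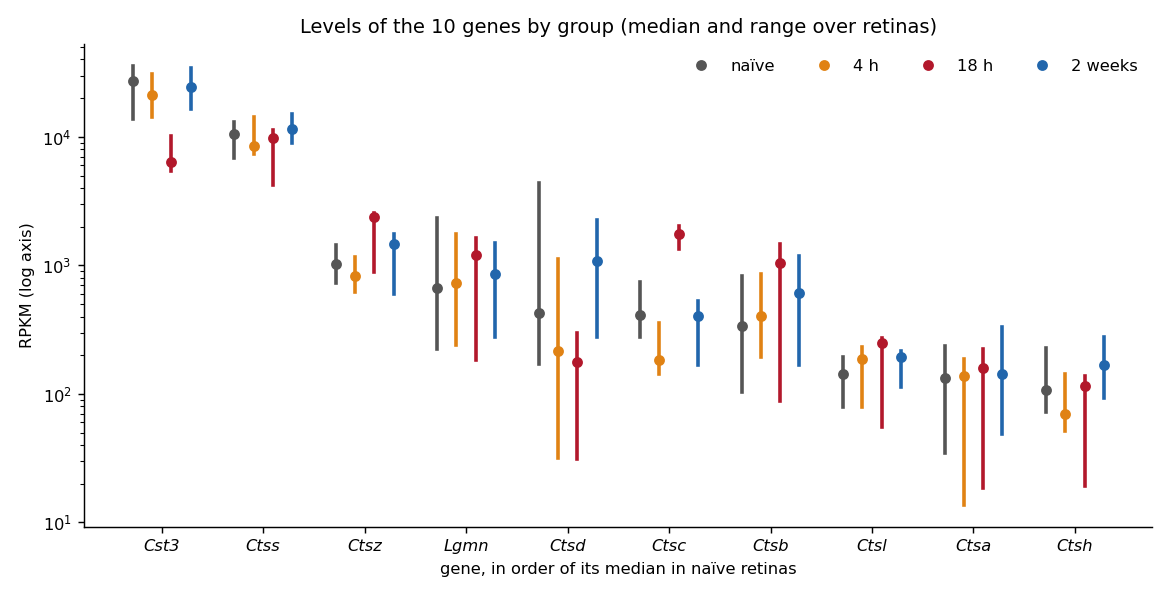
RPKM on a log axis for each of the 10 genes, in order of the naïve median, with points for the median and bars for the full range over the retinas of each group (10 naïve, 6 at 4 h, 5 at 18 h, 7 at 2 weeks). Cst3 and Ctsc at 18 h are the bars that stand clear of the naïve range, Cst3 below it and Ctsc above it.

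The genes differed in how far they varied between retinas of the same group. The pooled within-group SD on the log2(RPKM + 1) scale was 0.37 for Ctss, 0.40 for Cst3, 0.45 for Ctsz and 0.48 for Ctsc. It was 0.59 for Ctsl and 0.69 for Ctsh. It reached 1.03 for Lgmn, 1.11 for Ctsb, 1.23 for Ctsa and 1.39 for Ctsd. Among the 445 genes with a mean above 100 RPKM, Ctss lay at percentile 3.82 of this spread and Ctsd at percentile 94.8. The SE of a change from naïve retinas was accordingly 0.47 to 0.69 for Ctsd, Ctsa, Ctsb and Lgmn and 0.19 to 0.22 for Ctss and Cst3.

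The 4 variable genes moved together, and with the number of genes detected. In the 4 naïve retinas with the fewest genes reaching 1 RPKM (6552 to 8562, against 10358 or more in the other 6), Ctsa was between 34.5 and 47.8 RPKM, against 111 to 235. Lgmn was between 223 and 489 RPKM there and between 653 and 2327 in the others. Ctsb and Ctsd also had all 4 of these retinas below the other 6. Ctsc, Ctss, Ctsz, Ctsh and Ctsl overlapped between these sets of retinas, and Cst3 had the opposite order, with 28918 to 35642 RPKM against 13759 to 27742. These 4 retinas were all from experiment 1 and had 10200000 to 12300000 alignments.

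Across the whole set, 4 retinas had fewer than 8000 genes detected. They were naïve replicates 3 and 4, 18 h replicate 4 and 2-week replicate 1, again all from experiment 1. After removal of the group means, the Pearson correlations over the 28 retinas between Ctsa, Ctsb, Ctsd and Lgmn were 0.83 to 0.94. Those of Ctsh with these 4 genes were 0.76 to 0.84, and that between Lgmn and Cst3 was -0.58. These correlations are descriptions, since all genes of a retina share its library, amplification and depth. The part of the number of genes detected in the spread of these genes was not tested beyond the fits with it as a covariate given beside the results.

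**Figure D2:**
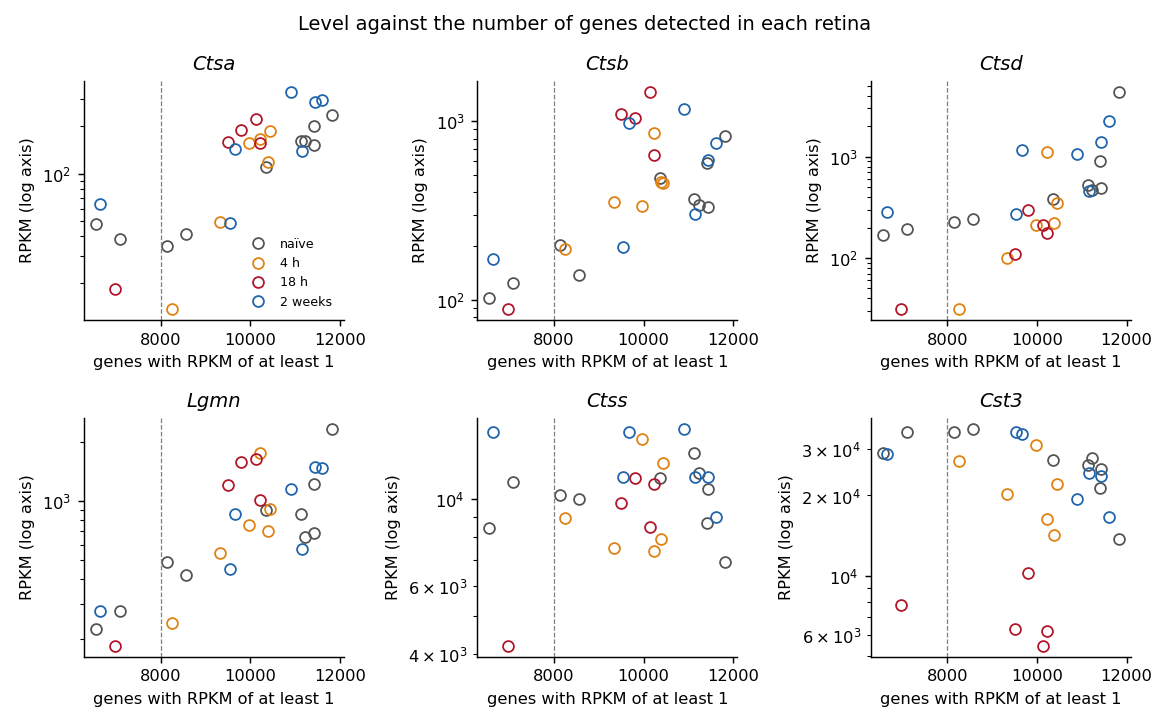
RPKM on a log axis against the number of genes reaching 1 RPKM, for 6 of the genes, with 1 point for each of the 28 retinas, coloured by group. The dashed line marks 8000 genes. Lgmn was between 184 and 277 RPKM in the 4 retinas to its left, against 240 to 2327 in the others, whereas Cst3 at 18 h was low at all numbers of genes.

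The sorted cells were checked against markers of microglia and of other cells. The 10 microglial markers summed to 8304 to 14244 RPKM among naïve retinas. The sums were 2184 to 7271 RPKM at 4 h, 3959 to 6516 RPKM at 18 h and 8830 to 14375 RPKM by 2 weeks. Of these 10, 6 fell at 4 h and 7 at 18 h. Of the 10 neutrophil markers 9 were listed, and their sum reached 17 RPKM at 18 h, against 0.137 among naïve retinas, 0.125 at 4 h and 0.342 by 2 weeks. The 10 monocyte markers summed to 4.15 to 54.7 RPKM at 18 h, against 0.183 to 29.1 among naïve retinas, 1.29 to 24.1 at 4 h and 1.98 to 28.5 by 2 weeks. Of these, Ccr2 and Ly6c2 were at 1.15 and 4.68 RPKM or less in each 18 h retina. Itgal was at 2.8 to 4.83 RPKM at 18 h, against at most 0.186 in naïve retinas. Plac8 reached 27.5 and Fn1 17 RPKM at 18 h, against 2.86 and 0.737, while F13a1 reached 4.29, against 28.4. Of the 3 monocyte markers tested, 1 rose at 4 h and 1 at 18 h, and none fell. The 10 lymphocyte markers summed to at most 0.0806 RPKM in naïve retinas, 0.47 at 4 h and 8.23 at 2 weeks, and to 7.85 to 343 RPKM at 18 h, most of it from the granule genes Gzma and Nkg7, while Cd79a was listed at 0 in all 5. The 10 rod markers summed to 2427 to 6344 RPKM in naïve retinas and 1742 to 2832 at 18 h, the 10 Müller glia markers to 55.8 to 229 and 50 to 124, the 10 endothelial markers to 0.174 to 4.11 and 0.291 to 2.38, and the 5 erythrocyte markers to 0 to 43.5 and 0.132 to 67.9, with up to 735 at 4 h. The part of other cells in the results was not tested, and fewer cells of a type and less RNA per cell cannot be told apart in these pooled cells.

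At 4 h the change among these genes was a lower level of Ctsc. The naïve retinas had a lowest, median and highest Ctsc of 277, 411 and 743 RPKM, and the 4 h retinas of 142, 185 and 358 RPKM. Of the 6 retinas at 4 h, 4 lay below all naïve retinas, and the other 2, at 340 and 358 RPKM, lay within the naïve range. The mean was 226 ± 96.8 RPKM (SD, n = 6) against 445 ± 147 (n = 10), a log2 fold change of -1.01 (SE 0.27, adjusted p = 0.012 by limma with Benjamini-Hochberg adjustment, the test used for all differences below), which is a 2.01-fold difference. A gene passed the test at an adjusted p of 0.05 or less, and was called a differentially expressed gene (DEG) where it also differed by 2-fold or more. Ctsc was the 1 gene of 10 to do either at 4 h, when 8.70% of the 13164 genes tested passed and 8.08% were DEGs. Its DEG call lay at the 2-fold limit. With 1 retina left out, the log2 fold change of Ctsc ran from -1.16 to -0.90. Ctsc passed in all 28 of these fits, but in some the difference was under 2-fold. It was also under 2-fold with a pseudocount of 10 (-0.98). With experiment 1 alone the fall was 0.73 on the log2 scale and missed the threshold (adjusted p = 0.54), as did a linear model on untransformed RPKM (adjusted p = 0.12). The 3 retinas of experiment 1 averaged 282 RPKM and the 3 of experiment 2 averaged 171 RPKM.

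Cst3 had a lowest, median and highest level of 14203, 21122 and 30984 RPKM at 4 h, within the naïve range. The log2 fold change was -0.34 (SE 0.20, adjusted p = 0.36). It passed with retinas scaled to equal summed RPKM (-0.63, adjusted p = 0.013) and after quantile normalisation (-1.31, adjusted p = 1.2e-06). Ctss also passed at 4 h after quantile normalisation (-1.21, adjusted p = 2.9e-07) and had a log2 fold change of -0.10 (SE 0.20) with the deposited values, -0.38 (adjusted p = 0.18) with equal summed RPKM and 0.03 with experiment 2 alone. The 9 genes that did not pass had log2 fold changes from -1.18 for Ctsd (SE 0.65, adjusted p = 0.32) to 0.49 for Ctsb (SE 0.53, adjusted p = 0.66).

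Ctsc and Cst3 moved in opposite directions by 18 h, and both were DEGs. Ctsc was at 1861, 2031, 1751, 1342 and 1587 RPKM in the 5 retinas at 18 h. All 5 lay above all naïve and all 4 h retinas. The mean of 1714 ± 264 RPKM (SD, n = 5) gave a log2 fold change of 1.99 from naïve retinas (SE 0.28, adjusted p = 2.0e-05) and of 3.00 from 4 h (SE 0.31, adjusted p = 6.0e-08), an 8.02-fold difference between these times. Ctsc passed against naïve retinas in all 16 alternative analyses and in all 28 fits that left out 1 retina.

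Cst3 was at 10208, 6336, 5455, 7758 and 6203 RPKM in the 5 retinas at 18 h. All 5 lay below all naïve and all 4 h retinas. The mean was 7192 ± 1880 RPKM (SD, n = 5) against 27480 ± 6677 (n = 10) in naïve retinas. The log2 fold change was -1.92 (SE 0.22, adjusted p = 3.2e-07), or 3.79-fold lower. Against 4 h it was -1.58 (SE 0.24, adjusted p = 4.0e-05). The call at 18 h was lost with experiment 2 alone, which holds 1 retina at 18 h (-2.01, adjusted p = 0.069), while in experiment 1 the 4 retinas averaged 7439 RPKM against 29078 in 6 naïve retinas. Of the 10 microglial markers, 7 also fell at 18 h, and their part in the fall of Cst3 was not tested.

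**Figure D3:**
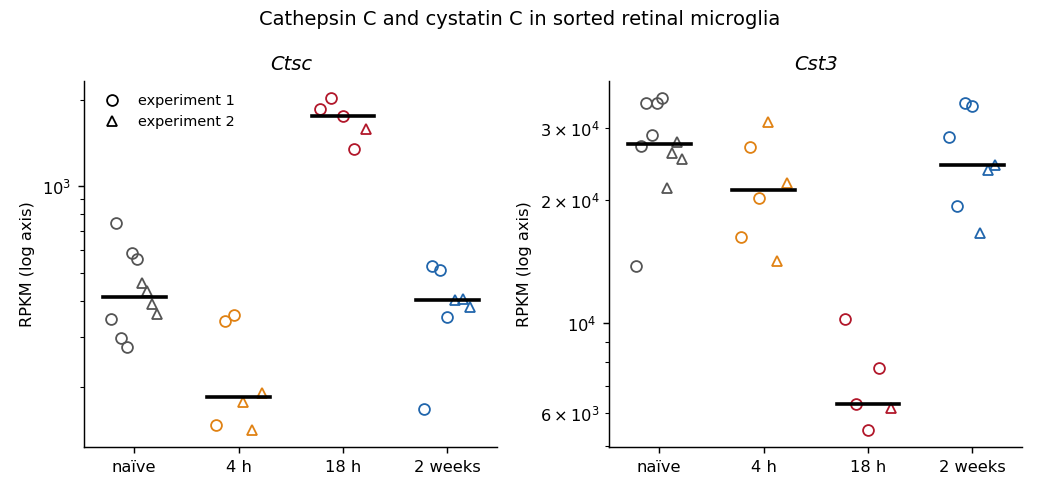
RPKM of Ctsc (left) and Cst3 (right) on log axes, with 1 symbol for each retina by group, circles for experiment 1, triangles for experiment 2 and a bar for the group median. At 18 h the 5 retinas lie between 1342 and 2031 RPKM for Ctsc, above all naïve retinas, and between 5455 and 10208 RPKM for Cst3, below all naïve retinas.

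These were 2 of the 10 genes, 1 higher and 1 lower. Of all genes tested, 4.85% passed at 18 h (2.93% higher and 1.91% lower) and 4.69% were DEGs. Complete separation of the 18 h from the naïve retinas was seen above for 2.05% of genes and below for 1.30%, and from the 4 h retinas above for 4.84% and below for 2.77%. Over the 10 genes the median change was 0.34 on the log2 scale, beside -0.08 over all genes tested.

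The count at 18 h depended on 18 h replicate 4, a retina with 6969 genes detected against 9499 to 10220 in the other 4. Without it, 4 of the 10 genes passed, with Ctsb and Ctsz added. Without all 4 retinas that had fewer than 8000 genes, 4 also passed, and with the number of genes detected as a covariate 5 passed, with Ctsd added (-1.49, adjusted p = 0.036). These last 2 analyses were chosen after seeing the data. Array weights gave 6 and experiment 2 alone gave 1.

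Ctsz was at 2367, 2390, 2560, 896 and 1470 RPKM at 18 h. Of these, 4 lay above all naïve retinas, and replicate 4, at 896 RPKM, lay within the naïve range. The log2 fold change from naïve retinas was 0.85 (SE 0.26, adjusted p = 0.052), and without replicate 4 it was 1.10 (adjusted p = 0.0077). Between 4 h and 18 h Ctsz rose by 1.15 (SE 0.29, adjusted p = 0.013), from a range of 616 to 1171 RPKM. That call was lost within experiment 1 (1.03, adjusted p = 0.26), within experiment 2 (1.04, adjusted p = 0.3) and without 18 h replicate 2 (1.04, adjusted p = 0.052), while the change stayed between 1.03 and 1.48 in the 16 alternative analyses.

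Ctsb was at 1041, 1101, 1458, 88.8 and 646 RPKM at 18 h. Of these, 3 exceeded the highest naïve retina and replicate 4 was below the lowest. The log2 fold change from naïve retinas was 1.14 (SE 0.56, adjusted p = 0.29), and 1.84 (adjusted p = 0.031) without replicate 4. Lgmn was at 1576, 1210, 1638, 184 and 1011 RPKM, with replicate 4 again below all naïve retinas, and its log2 fold change was 0.48 (SE 0.52, adjusted p = 0.7).

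Ctsd, the aspartic protease gene, was at 299, 109, 212, 31.2 and 177 RPKM at 18 h. Replicates 2 and 4 lay below all naïve retinas. The log2 fold change was -1.77 (SE 0.69, adjusted p = 0.16), so that a 3.42-fold difference was not separated from a spread that ran from 170 to 4373 RPKM in naïve retinas. Ctss was at 11368, 9813, 8510, 4200 and 10956 RPKM, and replicate 4 alone lay below the naïve range. Its log2 fold change was -0.25 (SE 0.21, adjusted p = 0.59), and 0.00 without replicate 4. After quantile normalisation it was -0.91 (adjusted p = 2.5e-04).

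Ctsa, Ctsl and Ctsh had the lowest medians of the 10 genes in naïve retinas. At 18 h Ctsa was at 190, 159, 223, 18.5 and 158 RPKM, with a log2 fold change of 0.28 (SE 0.63, adjusted p = 0.87). Ctsl was at 271, 155, 270, 55.6 and 250 RPKM, with 3 retinas above all naïve retinas, and its log2 fold change was 0.39 (SE 0.34, adjusted p = 0.61). Ctsh was at 116, 132, 138, 19.1 and 75 RPKM, with a log2 fold change of -0.57 (SE 0.38, adjusted p = 0.47). All 3 genes had their lowest 18 h value in replicate 4, below the naïve range.

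**Figure D4:**
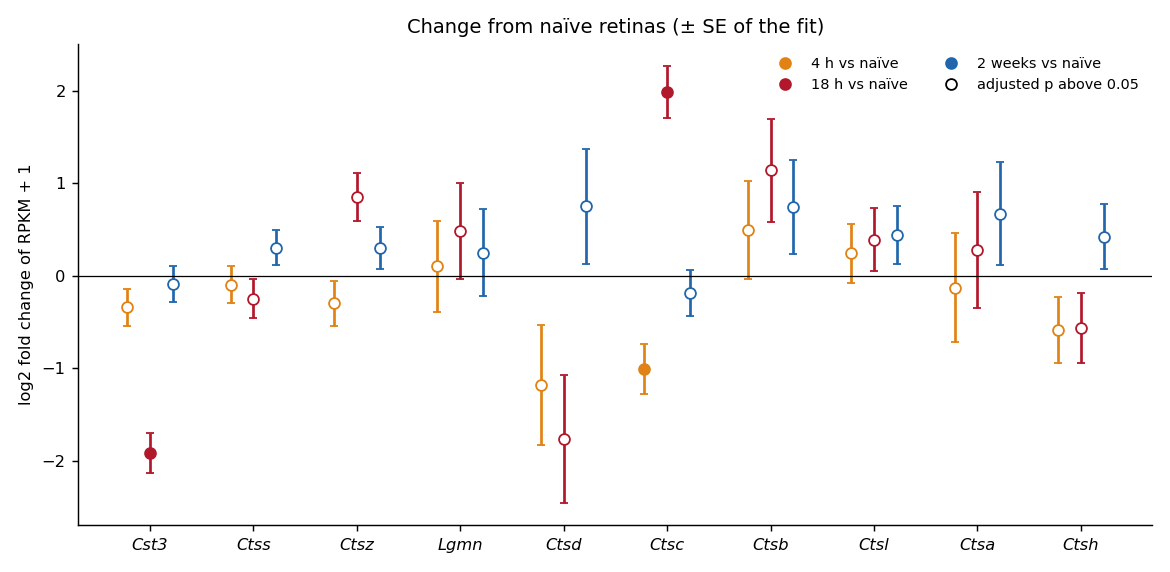
Log2 fold changes of RPKM + 1 from naïve retinas for each gene and time, with bars for the SE of the fit and filled points where the adjusted p was 0.05 or less. The filled points are Ctsc at 4 h (-1.01), Ctsc at 18 h (1.99) and Cst3 at 18 h (-1.92), and the widest bars belong to Ctsd.

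The comparison of 18 h with 4 h gave 3 of 10 genes, Ctsc and Ctsz higher and Cst3 lower, when 5.46% of all genes tested passed (2.94% higher and 2.52% lower). The remaining 7 genes had log2 fold changes between -0.59 for Ctsd (SE 0.77) and 0.65 for Ctsb (SE 0.62). Both times are also compared with the same naïve retinas, so that these comparisons share samples.

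At 2 weeks none of the 10 genes passed the test against naïve retinas by limma, and none had an unadjusted p below 0.05, the lowest being 0.12 for Ctss. This does not show that their levels equalled those of naïve retinas. Over all genes tested 1 passed, or 0.00760%, and 378 of 13164 had an unadjusted p below 0.05. Ctsc had a lowest, median and highest level of 169, 402 and 529 RPKM and a log2 fold change of -0.19 (SE 0.25, adjusted p = 1). Cst3 had 16593, 24320 and 34499 RPKM and a log2 fold change of -0.09 (SE 0.19, adjusted p = 1). Of the 7 retinas, 1 was below the naïve range for Ctsc, replicate 1 at 169 RPKM, and none for Cst3. The other 8 genes had log2 fold changes of 0.25 to 0.75 with SEs of 0.19 to 0.62.

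Between 18 h and 2 weeks, 2 of 10 genes passed, when 2.67% of all genes tested did (1.12% higher and 1.55% lower at 2 weeks). Ctsc fell by 2.19 on the log2 scale (SE 0.30, adjusted p = 2.1e-05), and all 7 retinas at 2 weeks lay below all 5 at 18 h. Cst3 rose by 1.84 (SE 0.23, adjusted p = 4.5e-06), and all 7 lay above all 5. Over all genes tested, 2.09% were separated upwards in this way and 2.07% downwards. Ctsd, with 275, 1075 and 2270 RPKM as lowest, median and highest at 2 weeks, had a log2 fold change of 2.52 (SE 0.74, adjusted p = 0.062), and passed in 6 of 16 alternative analyses.

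The mean share of Cst3 in the RNA of the 10 genes was lowest at 18 h. Cst3 made up 65.3% ± 8.74 (SD, n = 10) of the summed RPKM of the 10 genes before LPS, 62.5% ± 6.22 (n = 6) at 4 h, 33.4% ± 11.7 (n = 5) at 18 h and 59.2% ± 8.1 (n = 7) by 2 weeks. At 18 h the retinas had 34.8%, 27%, 24.6%, 53.2% and 27.5%. All but replicate 4 lay below the lowest naïve retina, at 45.1%. Ctss exceeded Cst3 in 4 of 5 retinas at 18 h and in none of the other 23. These are shares of RNA and not of protein, and they were described and not tested.

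The summed RPKM of the 9 protease genes was 14022 ± 1942 before LPS, 12761 ± 2965 at 4 h, 15223 ± 4806 at 18 h and 17305 ± 2763 by 2 weeks. Of this sum, Ctss gave 73.7% ± 12.6 in naïve retinas and 59.2% ± 5.95 at 18 h, Ctsc 3.2% ± 1.02 and 12.3% ± 4.2, and Ctsz 7.37% ± 1.57 and 12.8% ± 2.36. Within each retina Ctsc ranked between 4 and 7 of the 10 genes in naïve retinas, and 3 or 4 at 18 h. Cst3 over the sum of the 6 cysteine cathepsin genes Ctsb, Ctsc, Ctsh, Ctsl, Ctss and Ctsz was 1.4 to 2.99 in naïve retinas and 0.371 to 1.18 at 18 h, with no overlap. At 4 h this ratio was 1.52 to 2.58 and at 2 weeks 1.02 to 2.56. Replicates 2 and 5 at 2 weeks, at 1.02 and 1.34, lay below all naïve retinas, and this replicate 2 also lay below the highest 18 h retina. All 10 genes together took 11.2% ± 0.97 of the RPKM of all genes before LPS, 7.6% ± 1.29 at 4 h, 4.88% ± 1.33 at 18 h and 11.4% ± 1.47 by 2 weeks.

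**Figure D5:**
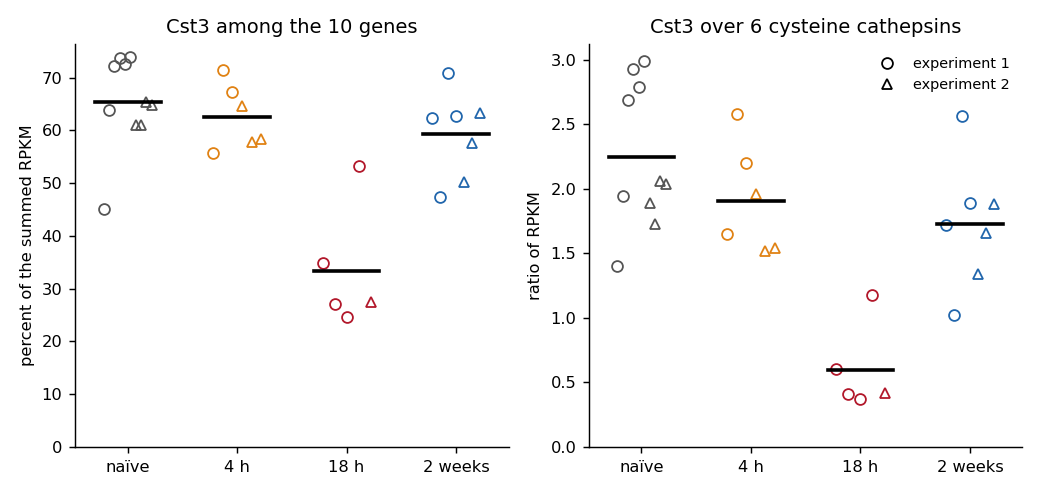
Cst3 as a percent of the summed RPKM of the 10 genes (left) and Cst3 RPKM over the summed RPKM of 6 cysteine cathepsin genes (right), with 1 symbol for each retina, circles for experiment 1, triangles for experiment 2 and a bar for the group mean. At 18 h the ratio lies between 0.371 and 1.18, below all naïve retinas.

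No difference between experiments 1 and 2 passed the test in these genes. None of the 10 passed a test for a different 4 h change between the experiments by limma (adjusted p = 1 for each, none with an unadjusted p below 0.05), when 0.0988% of all genes tested did. Of all genes tested, 620 had an unadjusted p below 0.05 for this difference. The Ctsc change at 4 h differed by -0.53 (SE 0.54) between experiment 2 and experiment 1. Over the 10 genes the SEs of such differences were 0.37 to 1.36 at 4 h and 0.36 to 1.31 at 2 weeks. A missed threshold therefore does not show equal changes in the experiments. For the changes at 18 h and at 2 weeks the counts were also 0 of 10 by limma, with no unadjusted p below 0.05, and no gene of the 13164 passed (133 and 383 had an unadjusted p below 0.05), while the 18 h comparison rests on 1 retina of experiment 2. Among naïve retinas none of the 10 genes passed for a difference between the experiments by limma, when 1.79% of all genes did. None of the 10 had an unadjusted p below 0.05, when 2794 of the 13164 genes did. Ctsa was nearest with a log2 fold change of 1.38 (SE 0.68, adjusted p = 0.24). The median difference of the 10 genes was 0.40 on the log2 scale, and that of all genes tested was also 0.40.

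The other genes of the pathway were read from 7 lists. Of 6 further cystatin and serpin genes tested, 3 rose at 18 h and none at 4 h, and their median change at 18 h was 0.65 on the log2 scale. Cst7, which encodes cystatin F, an intracellular inhibitor of cathepsin C, was at 26.8 ± 14.3 RPKM in naïve retinas and 127 ± 44.2 at 18 h (log2 fold change 2.31, SE 0.53, adjusted p = 0.0073). Cstb, which encodes the cytosolic inhibitor cystatin B, was at 242 ± 73.3 and 560 ± 146 RPKM (1.24, SE 0.28, adjusted p = 0.0064), with all 18 h retinas above all naïve retinas. Serpina3n, a serine protease inhibitor gene, was at 0.151 ± 0.374 and 2.17 ± 2.39 RPKM (1.18, SE 0.34, adjusted p = 0.036). It was low throughout, and its ranges overlapped, with 0 to 1.17 RPKM in naïve retinas and 0.0854 to 5.71 at 18 h. The ranges of Cst7 overlapped slightly, with 6.77 to 54.8 and 54.6 to 175 RPKM.

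Of 8 further cathepsin and lysosomal peptidase genes tested, none passed at any of the times after LPS, and none of 16 vacuolar ATPase subunit genes or 11 genes of endosomal antigen processing passed by limma. At an unadjusted p below 0.05 these 3 lists had 1, 2 and 2 genes at 4 h, 1 each at 18 h, and 1, 0 and 0 at 2 weeks. Over all 13164 genes tested, 2700 were below it at 4 h, 2301 at 18 h and 378 at 2 weeks. Among 39 soluble hydrolase and activator genes, 1 rose and 5 fell at 4 h and 1 rose and 2 fell at 18 h. Man2b1, the lysosomal alpha-mannosidase gene, fell at both times, from 55.3 ± 27.5 RPKM to 21.7 ± 11.5 at 4 h (-1.40, SE 0.36, adjusted p = 0.011) and 14.3 ± 7.07 at 18 h (-1.95, SE 0.38, adjusted p = 0.0016). Naglu fell at 4 h from 13.4 ± 15.6 to 2.18 ± 1.91 RPKM (-1.85, adjusted p = 0.036). Pla2g15 fell at 4 h from 18.7 ± 27.4 to 4.39 ± 5.09 RPKM (-1.77, adjusted p = 0.028). For both genes the ranges of naïve and 4 h retinas overlapped. Acp5, the tartrate-resistant phosphatase gene, rose at 4 h (1.82, adjusted p = 0.012) and Gla, the alpha-galactosidase A gene, at 18 h (2.13, adjusted p = 0.012). Both were low. Acp5 was at 0 to 1.94 RPKM in naïve retinas and 0 to 8.63 at 4 h, which overlap. Gla was at 0 to 5.43 RPKM in naïve retinas and 6.17 to 13 at 18 h.

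Of 22 lysosomal membrane protein genes, Litaf rose at 4 h (1.67, SE 0.52, adjusted p = 0.037), and at 18 h Cd63 rose and Scarb2 fell. Cd63, a tetraspanin gene of late endosomes, was at 166 ± 54.7 RPKM in naïve retinas and 451 ± 61.7 at 18 h (1.50, SE 0.31, adjusted p = 0.0024), with all 18 h retinas above all naïve retinas. Scarb2, the receptor gene for sorting of glucocerebrosidase, was at 15.4 ± 6.07 and 6.75 ± 1.21 RPKM (-1.02, SE 0.30, adjusted p = 0.043). Of 20 sorting and biogenesis genes, Vps18 alone passed, at 18 h (-1.50, SE 0.39, adjusted p = 0.016). It was low, at 1.16 to 10.4 RPKM in naïve retinas and 0.0368 to 1.28 at 18 h. Over the 122 genes tested in the 7 lists, 5.74% passed at 4 h, 7.38% at 18 h and none at 2 weeks by limma (3 at an unadjusted p below 0.05), beside 8.70%, 4.85% and 0.00760% of all genes tested. The counts moved with the analysis: at 4 h 7 of the 122 genes passed, but 1 with experiment 1 alone, 2 without 4 h replicate 5 and 31 with array weights. At 18 h 9 passed, but 1 with either experiment alone, 5 without 18 h replicate 2 and 44 with array weights.

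The genes with the pattern most like that of Ctsc over the 28 retinas, by Pearson correlation of log2(RPKM + 1), were Arhgdib (r = 0.90), Bst2 (0.88) and Erp44 (0.87). All 3 had higher levels at 18 h, with log2 fold changes of 1.44, 2.53 and 1.26. For Cst3 they were Ltc4s (0.91), Tgfbr1 (0.87) and the transcript Gm26527 (0.84), with log2 fold changes of -4.67, -2.35 and -2.89 at 18 h. These correlations run over all groups, so they largely follow the 18 h retinas, and they carry no test.

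On GRCm38 (GENCODE M21), all 10 genes are protein coding. Ctsc lies on chromosome 7 from 88278085 to 88310888 on the plus strand and Cst3 on chromosome 2 from 148871722 to 148875692 on the minus strand. The noncoding gene Gm26522 overlaps Ctsc, and Cst3 overlaps no annotated gene. Neighbours also overlap Ctsa, Ctsb, Ctsd, Ctsl, Ctss and Ctsz. Estimation by expectation-maximisation can divide reads between overlapping genes, so that their levels carry that uncertainty, while Ctsh and Lgmn overlap none.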

How the data were processed

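Values were RPKM per gene and retina, which the authors deposited after trimming, alignment to mm10 with STAR 2.5.3a, and assignment to Ensembl transcripts by Partek's expectation-maximisation. Depth was 7510000 to 19700000 alignments per retina (median 12650000), and whole reads were not recovered, so that no counting intervals are given. The authors also deposited tables of their own comparisons at 4 h and 18 h (ANOVA p-values, ratios of means, fold changes, F statistics), which were not used.

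Values were transformed to log2(RPKM + 1), and the 13164 of 40021 genes that reached 1 RPKM in 5 or more of 28 retinas were tested with limma 3.58.1 in R 4.3.3, in 1 fit of the 4 groups, with eBayes moderation along a trend in mean level and p-values adjusted by Benjamini-Hochberg over these genes. Adding 1 before the logarithm makes fold changes of low genes too small. The test was checked on simulated data. Samples were grouped by their labels.

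The 10 genes and the lists were chosen with earlier results of these data known. Named genes were the 10, up to 3 rises and 3 falls per list at 4 h and 18 h among genes that passed, and the 3 genes most correlated with Ctsc and Cst3. Marker lists were of microglia, neutrophils, monocytes, lymphocytes, rods, Müller glia, endothelium and erythrocytes. Alternatives were other pseudocounts, filters, covariates, scalings, weights, a replicate block, single experiments and each retina left out. Promoter windows came from RefSeq (GRCm38.p6), coordinates from GENCODE M21, figures from Python 3.11.15 with matplotlib 3.10.9. Some genes of the marker and pathway lists are not reported by name here.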

Additional observations from a re-analysis of the deposited data

Results flagged for a closer look

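Within each group, the highest and the lowest retina of each of the 10 genes was compared with the rest by Dixon's criterion. Of the 40 combinations of gene and group, 5 had a retina beyond the 95% critical value, and chance alone gives about 1 in 20. At 18 h, replicate 4 had 18.5 RPKM of Ctsa, against 158 to 223 in the other 4 retinas, and 184 RPKM of Lgmn, against 1011 to 1638. At 2 weeks, replicate 1 had 169 RPKM of Ctsc, against 350 to 529 in the other 6. Both of these retinas had fewer than 8000 genes at an RPKM of at least 1 (6969 and 6644). At 2 weeks, replicate 3 had 114 RPKM of Ctsl, against 179 to 217 in the others. Among naïve retinas, replicate 1 had 4373 RPKM of Ctsd, against 170 to 906 in the other 9, and it was also the naïve retina with the most genes detected (11825) and with the lowest Cst3 (13759 RPKM) and Ctss (6890 RPKM).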

How the results depend on the processing

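Counts of the 10 genes are given beside those with all 28 retinas. At 4 h (1 gene) they were 0 with experiment 1 alone and with an ANOVA on untransformed RPKM, 2 with equal summed RPKM and 3 after quantile normalisation. At 18 h (2) they were 1 with experiment 2 alone, 6 with array weights, 5 with detected genes as covariate and 4 without the retinas under 8000 genes. Between 4 h and 18 h (3) there was 1 with experiment 2 alone, and between 18 h and 2 weeks (2) there were 1 with experiment 2 alone and 4 with equal summed RPKM or array weights. Leaving out 1 retina gave 2 to 4 genes at 18 h, the 4 without 18 h replicate 4, 2 to 3 for 18 h against 4 h and for 2 weeks against 18 h, 1 at 4 h and none at 2 weeks.

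Of the 122 list genes, 7 passed at 4 h, and 2 without a filter or with an ANOVA, 4 with only the groups compared, 1 with experiment 1 alone, 16 with experiment 2 alone, 18 with equal summed RPKM, 31 with array weights, 20 with detected genes as covariate and 14 without the retinas under 8000 genes. At 18 h 9 passed, and 1 with either experiment alone, 44 with array weights and 21 with detected genes as covariate. Leaving out 1 retina gave 2 to 9 at 4 h (2, 3 and 4 without 4 h replicates 5, 2 and 3) and 5 to 11 at 18 h (5 without 18 h replicate 2).

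Signs turned only for values that did not pass. At 4 h these were Ctsa with the replicate block (0.29), Ctsl with equal summed RPKM (-0.04), Ctss with experiment 2 alone (0.03), and Lgmn with experiment 2 alone (-0.08), equal summed RPKM (-0.18), quantile normalisation (-0.07) and without the retinas under 8000 genes (-0.24). At 18 h these were Ctsa with experiment 2 alone (-0.09) and equal summed RPKM (-0.04), and Ctss with experiment 2 alone (0.00). At 2 weeks these were Ctss with experiment 2 alone (-0.05), and Cst3 with experiment 1 alone (0.03) and quantile normalisation (0.15). With 1 retina left out, Ctsa ran from -0.36 to 0.38 and Lgmn from -0.16 to 0.41 at 4 h, Ctss from -0.35 to 0.00 at 18 h, and Cst3 from -0.19 to 0.01 at 2 weeks. Equal summed RPKM moved the median of all genes from -0.11 to -0.28 at 4 h and from -0.08 to -0.26 at 18 h. The causes were not tested.

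Retinas of different groups with the same replicate number were little more alike than those with different numbers. Of 34 pairs with the same number, 15 correlated above 0.1 (-0.329 to 0.698), and their median was 0.0352. The 253 pairs with different numbers ran from -0.552 to 0.689, with a median of 0.00539. A replicate block left the counts at 1, 2, 0, 3 and 2. The mean share of Cst3 among the 10 genes at 18 h was 34.9% in experiment 1 and 27.5% in the 1 retina of experiment 2. In naïve retinas it was 66.8% and 63.1%. A median, or a mean with 1 retina left out, lies within 1 SD of the mean by arithmetic, so that neither was a check on this share. The reads behind each RPKM are unknown, and with 5 retinas at 18 h, 1 of them low in detected genes, differences in Ctsa, Ctsb, Ctsd and Lgmn of the size seen were not called.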
